A study of Mus musculus with 4 samples.

Results

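The genes described here are 36 enzymes and regulators of sterol and fatty acid synthesis. They include transcripts that the SREBP transcription factors are best known for driving. They were listed by symbol, matched to array probes through RefSeq accessions, and each was read from its brightest probe over the 4 arrays. All 36 were among the 17967 genes tested, and all 36 were well above background on 4 of 4 arrays. They fall into a sterol branch of 18 enzymes, a fatty acid branch of 12 enzymes, and 6 regulators or sterol carriers.

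Cells make cholesterol from acetyl-CoA through mevalonate, farnesyl diphosphate, squalene and lanosterol, and make fatty acids from the same acetyl-CoA through malonyl-CoA. SREBP2, the product of Srebf2, mainly drives the sterol enzymes, and SREBP1, the product of Srebf1, mainly the fatty acid enzymes. Both are made as membrane-bound precursors that Scap escorts to the Golgi for cleavage when membrane sterol is low, and Insig proteins hold Scap back when sterol is plentiful. In myeloid cells the pathway supplies membrane for growth and secretion, and SREBP cleavage, rather than SREBP transcript level, is regarded as its main switch.

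The RNA came from bone marrow-derived dendritic cells (BMDC) of female C57BL/6 mice, 8 weeks old, grown for 6 days in GM-CSF at 20 ng/mL and then isolated as CD11c+ cells. The control group, RFF, carried Rbpj fl/fl alleles alone, and the Rbpj-deficient group, RFF11, carried Rbpj fl/fl alleles together with CD11c-cre, so both groups share the floxed alleles and differ in the cre as well as in Rbpj. Because the cre runs from the CD11c promoter, deletion begins only as cells turn that promoter on, and the effect of the cre itself cannot be told apart from the loss of Rbpj. Each group had 2 arrays, and RNA was pooled from 4 mice per group. Whether the 2 arrays of a group came from separate pools was not stated, and the p-values cover no more than the variation among these arrays, part or all of which may be technical. The 4 arrays lay on 1 slide, each in its own position, so position and genotype cannot be told apart.

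Levels are log2 signal after subtraction of each array's 75th percentile, and a change is the mean level in RFF11 minus that in RFF. A change was called at a Benjamini-Hochberg adjusted p under 0.05 in limma over the 17967 genes. Precision is limited by having 2 arrays a genotype. Of 43020 gene spots per array, 55.2% to 58.4% were well above background. Rbpj, the DNA-binding partner of Notch receptors, read 2.69 and 2.60 on the RFF arrays and 1.36 and 1.43 on the RFF11 arrays, a change of -1.25 (SE 0.07, limma adjusted p = 0.0282) that left 42.1% of the control signal. The position of the probe with respect to the loxP sites is not given in the sources used here, so it may lie outside the deleted part. Without any 1 array at most 1 gene was called in limma, and Rbpj lost its call (-1.29 to -1.21, adjusted p from 0.104 to 0.145), as did each other gene reported as called. The dendritic cell markers Cd74, H2-Ab1 and Itgax were well above background on 4 of 4 arrays, and Itgax, the gene of CD11c, differed by -0.11 (adjusted p = 0.521).

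The promoters of a few members are printed first, because the sterol enzymes are known as a set that shares promoter elements. SREBPs bind the sterol regulatory element, searched here as TCACNCCAC, and act with the neighbouring factor NF-Y, which binds the CCAAT box, searched as CCAAT. Both were searched on both strands in the 250 bases before each gene start in the RefSeq table for GRCm38.p6, which held promoters of 29 of the 36 members. Fdft1, Fdps, Fads1, Scd1, Scd2, Sqle and Stard4 had no entry. Shown are Insig1, Mvd and Idi1, which had low changes, Hmgcs1, which held the sterol regulatory letters, and Elovl5, which lay highest among the fatty acid enzymes. Capitals mark matches to either motif on either strand.
Insig1 (chr5:28071162-28071411, plus strand): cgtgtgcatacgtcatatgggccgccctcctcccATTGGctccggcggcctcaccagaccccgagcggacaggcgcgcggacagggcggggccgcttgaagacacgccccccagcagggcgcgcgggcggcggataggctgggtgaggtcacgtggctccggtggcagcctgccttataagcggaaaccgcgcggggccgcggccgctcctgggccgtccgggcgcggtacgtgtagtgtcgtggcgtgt
Mvd (chr8:122443423-122443672, minus strand): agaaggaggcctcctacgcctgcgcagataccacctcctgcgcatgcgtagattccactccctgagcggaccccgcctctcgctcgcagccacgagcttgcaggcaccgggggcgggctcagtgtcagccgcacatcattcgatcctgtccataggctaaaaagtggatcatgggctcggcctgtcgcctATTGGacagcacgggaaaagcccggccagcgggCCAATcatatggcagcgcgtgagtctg
Idi1 (chr13:8885356-8885605, plus strand): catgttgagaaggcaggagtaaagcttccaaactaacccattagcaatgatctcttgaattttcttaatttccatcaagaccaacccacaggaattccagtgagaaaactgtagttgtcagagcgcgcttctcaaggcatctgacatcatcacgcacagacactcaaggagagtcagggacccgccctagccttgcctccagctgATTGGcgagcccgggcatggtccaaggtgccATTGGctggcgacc
Hmgcs1 (chr13:119690101-119690350, plus strand): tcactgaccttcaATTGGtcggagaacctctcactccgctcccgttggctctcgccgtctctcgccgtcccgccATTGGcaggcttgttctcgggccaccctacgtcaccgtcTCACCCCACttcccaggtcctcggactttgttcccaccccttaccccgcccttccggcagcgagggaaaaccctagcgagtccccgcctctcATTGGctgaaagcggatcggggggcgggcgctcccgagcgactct
Elovl5 (chr9:77917115-77917364, plus strand): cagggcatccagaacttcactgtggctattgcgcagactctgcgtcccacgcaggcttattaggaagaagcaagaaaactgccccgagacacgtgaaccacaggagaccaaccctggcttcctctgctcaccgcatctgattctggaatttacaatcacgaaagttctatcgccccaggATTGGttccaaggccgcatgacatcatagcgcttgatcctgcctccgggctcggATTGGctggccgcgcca
A CCAAT box lay in the window of 23 of the 29 members (79.3%), against 40.2% of 10251 tested genes with a promoter and 33.8% of the 32851 promoters in the table. It was present in 14 of 15 sterol branch promoters and 5 of 9 fatty acid branch promoters, where a gene with several listed starts counted if any of them held the motif. Elovl5 held 2 CCAAT boxes although its change had the opposite sign to those of Insig1, Mvd and Idi1. The letters TCACNCCAC occurred in 1 of 29 members, Hmgcs1, at 137 to 129 bases before its start, and in 1.22% of the tested genes with a promoter. The core recognised by RBPJ, searched as GTGGGAA on both strands, occurred in 3 of 29 members, Hmgcs1, Nsdhl and Sc5d (10.3%), and in 6.28% of the tested genes with a promoter. In Hmgcs1 it overlapped neither of the other motifs. A match describes letters in this window and not binding. Only these exact letters were searched, so a promoter without a match may still hold another form of the element.

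None of the 36 genes passed the threshold in limma, against 1.9% of the genes tested (342 of 17967), while most lay lower in Rbpj-deficient cells by small amounts. Changes ran from -0.47 to 0.30, with a median of -0.22 against -0.01 over all genes tested. Changes lay below 0 for 30 of 36, against 52.8% of genes tested. At an unadjusted p under 0.05 there were 17 of 36, 15 of them lower, against a background of 24.1% in either direction and 12.9% lower. The genotypes did not overlap for 29 of 36, 26 lower and 3 higher, against 59.1% of genes tested in either direction, 32.3% lower and 26.7% higher. Among the 342 genes called, the smallest change was 0.46 in size and 11 were under 0.50, whereas the largest among the members was 0.47, at the lower edge of the sizes called in these 4 arrays. Bulk RNA does not tell fewer expressing cells from less RNA per cell.

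**Figure D1:**
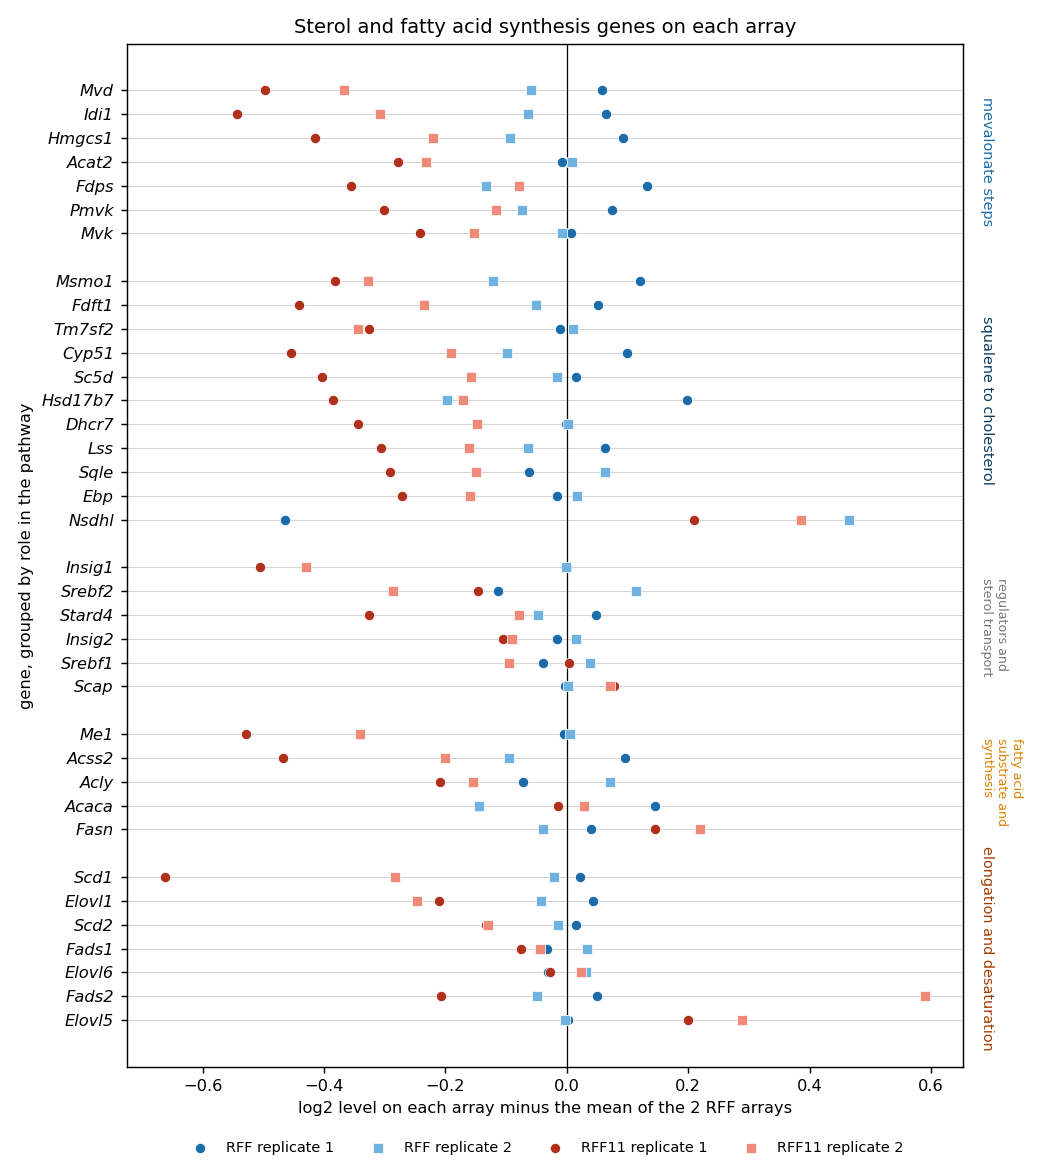
Level of each of the 36 genes on each array, as log2 level minus the mean of the 2 RFF arrays (horizontal axis), with genes on the vertical axis grouped by role. Blue points are RFF arrays and red points RFF11 arrays, circles replicate 1 and squares replicate 2; the dark red circles of RFF11 replicate 1 lie farthest left for 26 of 36 genes.

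The mevalonate steps, which turn acetyl-CoA into the isoprenoid farnesyl diphosphate, lay below the control for 7 of 7 genes. Their median change was -0.26 and none passed. Mvd, the decarboxylase that makes isopentenyl diphosphate, read 2.61 and 2.49 on the RFF arrays and 2.05 and 2.18 on the RFF11 arrays. Its change of -0.43 (SE 0.08, adjusted p = 0.0825) left 74.1% of the control signal, with a gap of 0.31 between the nearest arrays of the 2 genotypes. Idi1, the isomerase that follows Mvd, read 3.17 and 3.04 in RFF and 2.56 and 2.79 in RFF11. The change of Idi1 was -0.43 (SE 0.11, adjusted p = 0.128), and the 2 RFF11 arrays were farther apart than the 2 RFF arrays. Hmgcs1, which forms HMG-CoA and holds the sterol regulatory letters shown above, read 3.94 and 3.76 against 3.44 and 3.63, a change of -0.32 (SE 0.11, adjusted p = 0.191). The highest change of this group belonged to mevalonate kinase, Mvk, at 3.51 and 3.49 against 3.26 and 3.35, or -0.20 (SE 0.06, adjusted p = 0.169). Its dimmer probe changed by -0.19. Acat2, the cytosolic thiolase at the start of the route, stood at -0.26, phosphomevalonate kinase Pmvk at -0.21 and farnesyl diphosphate synthase Fdps at -0.22. Fdps was the 1 gene of the 7 whose genotypes overlapped, with RFF11 replicate 2 at 4.00 above RFF replicate 2 at 3.94. Among all genes tested the genotypes did not overlap for 59.1%, and for 32.3% in the lower direction.

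Enzymes from squalene to cholesterol lay below the control for 10 of 11 genes, with a median change of -0.28 and none past the threshold. Msmo1, the C4 sterol methyl oxidase, read 4.09 and 3.85 in RFF and 3.58 and 3.64 in RFF11. Its change was -0.35 (SE 0.10, adjusted p = 0.153). Squalene synthase Fdft1, which commits farnesyl diphosphate to sterols, read 1.27 and 1.17 against 0.78 and 0.99, a change of -0.34 (SE 0.10, adjusted p = 0.153) that its dimmer probe matched at -0.34. Tm7sf2, a sterol C14 reductase, had the tightest arrays of the branch, at 2.42 and 2.44 against 2.10 and 2.08. Its change of -0.34 (SE 0.05, adjusted p = 0.0676) left 79.3% of the control signal, and its second probe stood at -0.23. Changes from -0.32 to -0.22, none past the threshold, belonged to the lanosterol demethylase Cyp51 (-0.32), the desaturase Sc5d (-0.28), the ketoreductase Hsd17b7 (-0.28), the final reductase Dhcr7 (-0.25), lanosterol synthase Lss (-0.23), squalene epoxidase Sqle (-0.22) and the sterol isomerase Ebp (-0.22). For 6 of these 7 the genotypes did not overlap, against 59.1% of genes tested in either direction and 32.3% in the lower direction. The exception was Hsd17b7, with RFF at -1.57 and -1.97 and RFF11 at -2.15 and -1.94.

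Nsdhl, the sterol dehydrogenase that works beside Msmo1 and Hsd17b7, was the 1 sterol gene above the control, and its probes disagreed. The brighter probe read -1.57 and -0.64 in RFF and -0.89 and -0.72 in RFF11, a change of 0.30 (SE 0.34, adjusted p = 0.628). RFF replicate 1 alone stood low, the widest gap between arrays of 1 genotype among the 36 genes (0.93). Without that array the change was -0.17. The dimmer probe stood at -0.26, close to the rest of the branch.

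**Figure D2:**
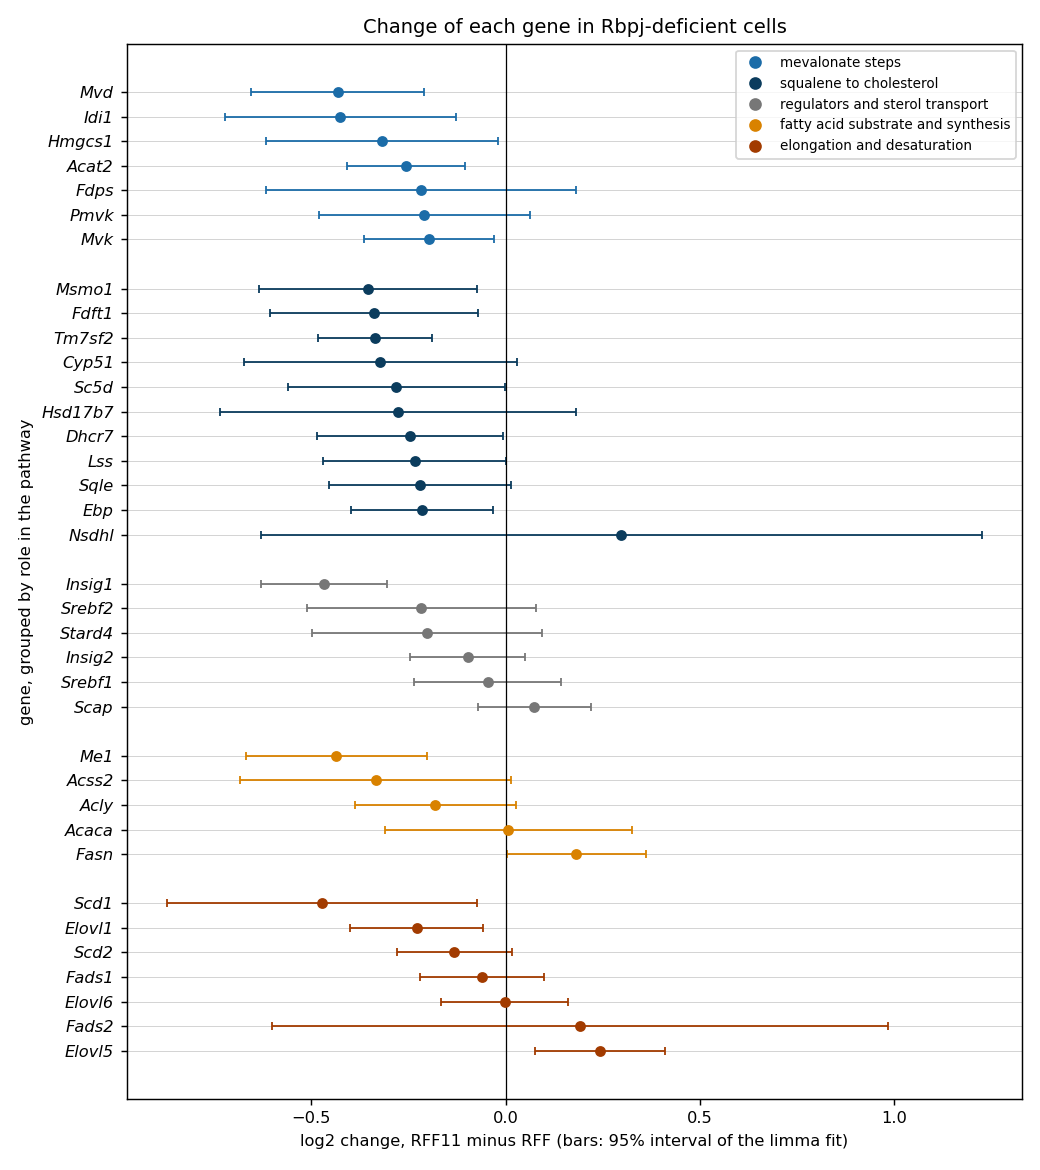
Log2 change of each gene, RFF11 minus RFF (points, horizontal axis), with 95% intervals of the limma fit (bars), grouped and coloured by role on the vertical axis. Sterol branch points lie between -0.43 and -0.20 apart from Nsdhl at 0.30, whereas fatty acid branch points run from -0.47 to 0.24.

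Among the regulators, Insig1 stood lowest and the transcripts of SREBP1 and Scap lay near the control. Insig1, which retains SREBP precursors in the endoplasmic reticulum and is itself an SREBP target, read -1.46 and -1.46 in RFF and -1.96 and -1.89 in RFF11. Its change of -0.47 (SE 0.06, adjusted p = 0.0556) left 72.3% of the control signal, with arrays of each genotype within 0.08 of each other. This was the lowest adjusted p of the 36 genes, and it passed with median scaling (0.0475), normexp background (0.0466), a filter on 4 of 4 arrays (0.0458) and a variance prior with trend (0.0193), where 2.36%, 4.94%, 2.77% and 8.65% of genes tested were called. Over the 14 alternatives that value ran from 0.0193 to 0.310. Its relative Insig2 read 0.06 and 0.09 against -0.03 and -0.01, a change of -0.10 (SE 0.05, adjusted p = 0.343), and a probe to another Insig2 accession stood at 0.05.

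Srebf2 read 1.34 and 1.57 in RFF and 1.31 and 1.17 in RFF11, a change of -0.22 (SE 0.11, adjusted p = 0.306). A gap of 0.03 separated the genotypes, smaller than the gap within either, and the dimmer probe stood at -0.02. Srebf1 read -2.12 and -2.04 against -2.08 and -2.18, so that the genotypes overlapped, and its change was -0.05 with a 95% interval from -0.23 to 0.14. Scap read 3.36 and 3.37 against 3.44 and 3.43, a change of 0.07 (SE 0.05, adjusted p = 0.443). The sterol carrier Stard4 read 1.22 and 1.13 against 0.85 and 1.097, or -0.20 (SE 0.11, adjusted p = 0.3299), with RFF11 replicate 2 close to the control arrays.

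Fatty acid genes did not lie to 1 side, with 8 of 12 below 0 and a median change of -0.10. The enzymes that supply substrate stood lower. Malic enzyme Me1, which yields NADPH, read -2.85 and -2.84 in RFF and -3.37 and -3.19 in RFF11, a change of -0.44 (SE 0.08, adjusted p = 0.0864) with 74.0% of the control signal left. Its 2 dimmer probes stood at -0.48 and -0.15. Acss2, which makes acetyl-CoA from acetate, read -0.63 and -0.82 against -1.19 and -0.93, a change of -0.33 (SE 0.13, adjusted p = 0.219) that the second probe matched at -0.33. ATP-citrate lyase Acly read 4.39 and 4.54 against 4.25 and 4.31, or -0.18 (SE 0.08, adjusted p = 0.247).

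The enzymes that build the chain itself did not stand lower. Acetyl-CoA carboxylase Acaca read 2.68 and 2.39 in RFF and 2.52 and 2.56 in RFF11, a change of 0.01 with a 95% interval from -0.31 to 0.33, and both RFF11 arrays lay between the RFF arrays. Fatty acid synthase Fasn read -2.00 and -2.08 against -1.89 and -1.82, a change of 0.18 (SE 0.06, adjusted p = 0.202) on the opposite side to the sterol enzymes.

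Elongases and desaturases, which lengthen and unsaturate the chain, spread from -0.47 to 0.24. Stearoyl-CoA desaturase Scd1 read 0.17 and 0.12 in RFF and -0.52 and -0.14 in RFF11. That is the lowest change of the 36 genes, -0.47 (SE 0.14, adjusted p = 0.166), and its size rests in part on RFF11 replicate 1, without which it was -0.28. Elovl1, an elongase of very long saturated chains, read 6.02 and 5.93 against 5.77 and 5.73, or -0.23 (SE 0.06, adjusted p = 0.139). Scd2 read 5.16 and 5.13 against 5.01 and 5.02, or -0.13 (SE 0.05, adjusted p = 0.241).

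Elovl5, which elongates polyunsaturated chains, read 3.01 and 3.01 in RFF and 3.21 and 3.30 in RFF11. Its change of 0.24 (SE 0.06, adjusted p = 0.124) was the highest of the fatty acid branch, and both RFF11 arrays stood above both RFF arrays. Elovl6 left 99.8% of the control signal, with a 95% interval of the log2 change from -0.17 to 0.16. The desaturase Fads1 stood at -0.06 (95% interval -0.22 to 0.10). Fads2, its partner in making polyunsaturated fatty acids, read -3.16 and -3.26 against -3.42 and -2.62, so that its 2 RFF11 arrays lay on either side of the control. Its change of 0.19 (SE 0.29) became -0.21 without RFF11 replicate 2.

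Set side by side, the sterol branch had a median change of -0.27 with 17 of 18 genes below 0, and the fatty acid branch -0.10 with 8 of 12. The difference between the medians was -0.17, with no test, since the members were listed with earlier results known. Unadjusted p lay under 0.05 for 11 of 18 sterol genes, 11 of them lower, and for 5 of 12 fatty acid genes, 3 of them lower, against 24.1% of genes tested, and 12.9% in the lower direction. Genotypes did not overlap for 15 of 18 and 9 of 12, of which 15 and 7 were lower, against 59.1% of genes tested, and 32.3% in the lower direction.

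Single arrays set the size of the sterol difference but not its sign. The sterol median was -0.40 for RFF11 replicate 1 against RFF replicate 1, -0.30 for RFF11 replicate 1 against RFF replicate 2, -0.22 for RFF11 replicate 2 against RFF replicate 1 and -0.15 for RFF11 replicate 2 against RFF replicate 2. The same 4 pairs gave -0.15, -0.14, -0.10 and -0.09 for the fatty acid branch and -0.02 to -0.01 for all genes tested. The sterol median difference therefore lay below that of the fatty acid branch in 4 of 4 pairs, by 0.06 to 0.24. These pairs share arrays and are not independent.

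Arrays of 1 genotype also differed in these genes, in both branches. RFF11 replicate 2 stood above RFF11 replicate 1 for 17 of 18 sterol genes, by a median of 0.18, and for 11 of 12 fatty acid genes, by a median of 0.064, where all genes tested had a median of -0.0017. RFF replicate 1 stood above RFF replicate 2 for 12 of 18, by a median of 0.11, and for 8 of 12 fatty acid genes, by a median of 0.036. The lowest array was RFF11 replicate 1 for 16 of 18 sterol genes, and the highest was RFF replicate 1 for 12 and RFF replicate 2 for 6. The 0.18 between the RFF11 arrays compares with a sterol median of -0.27 between genotypes. Without RFF11 replicate 1 the sterol median was -0.17 and the branch difference -0.08, and without RFF11 replicate 2 they were -0.35 and -0.18, the fatty acid median being -0.09 and -0.17.

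**Figure D3:**
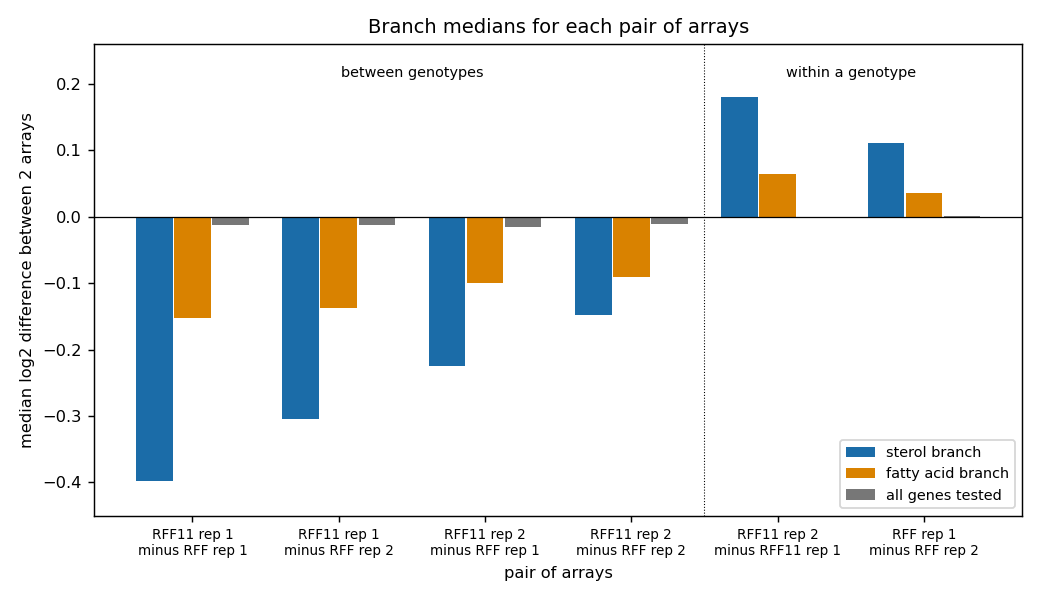
Median log2 difference (vertical axis) for 6 pairs of arrays (horizontal axis) over the sterol branch, the fatty acid branch and all genes tested. Bars for the sterol branch reach -0.40 to -0.15 between genotypes and 0.11 to 0.18 within a genotype, while bars for all genes lie within 0.02 of 0.

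Several members were read by more than 1 probe, which gives a second reading of the same RNA. Of 14 such genes, the probes of 12 shared 1 sign, the exceptions being Nsdhl and Insig2. Of 52 probes for the 36 genes, 43 lay below 0, and each of the 52 was well above background on 4 of 4 arrays.

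Genes around the pathway were taken from lists by function, and their medians lay between -0.07 and 0.06. Over all genes tested 1.9% were called in limma and 24.1% had an unadjusted p under 0.05. Of 12 genes for SREBP cleavage, Insig and HMG-CoA reductase turnover and the partner factors NF-Y and Sp1, none passed in limma (1 at an unadjusted p under 0.05) and 6 lay below 0, with a median of -6.4e-05. Erlin2, part of the complex that degrades sterol-regulated proteins, stood lowest at -0.26 (adjusted p = 0.0970), and the NF-Y subunit Nfyb highest at 0.13. Of 10 genes of isoprenoid side branches none passed (1 at an unadjusted p under 0.05) and 5 lay below 0 (median 0.01), from Nus1, a subunit of the dolichol-forming transferase, at -0.26 to the methyltransferase Icmt at 0.13.

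A further gene of the desaturase family did pass. Fads3, the neighbour of Fads1 and Fads2 in the FADS cluster, read 1.03 and 0.95 in RFF and 1.74 and 1.76 in RFF11. It rose by 0.77, or 1.70-fold (SE 0.06, limma adjusted p = 0.0358), with no overlap, and lost the call when any 1 array was left out, at 0.73 to 0.80 and an adjusted p from 0.116 to 0.161. It was the 1 gene of 16 further fatty acid and acyl-CoA enzymes to pass, where 1.05% of genes tested were called higher. The other 15 did not, their list median was -0.05, and Acsl3, an acyl-CoA synthetase of lipid droplets, stood lowest at -0.28 (adjusted p = 0.234). Gpam was not well above background.

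Genes of sterol export, storage and oxysterols went both ways, with 7 of 12 below 0 and a median of -0.07. None passed the threshold in limma, and 3 had an unadjusted p under 0.05, against 24.1% of genes tested. Abca1, which exports cholesterol and is induced by LXR, read 1.16 and 1.22 in RFF and 0.80 and 0.69 in RFF11, or -0.45 (SE 0.07, adjusted p = 0.0654). Ch25h, which makes 25-hydroxycholesterol, an oxysterol known to hold back SREBP cleavage, read -0.13 and -0.31 against 0.78 and 0.42. Its change of 0.82 (SE 0.15, adjusted p = 0.0819) was the highest of the list. Within RFF11 the array with more Ch25h, replicate 1, was also the array with the lower sterol medians, and within RFF the array with more Ch25h, replicate 1, was the array with the higher ones. The part of Ch25h in the sterol difference was not tested.

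**Figure D4:**
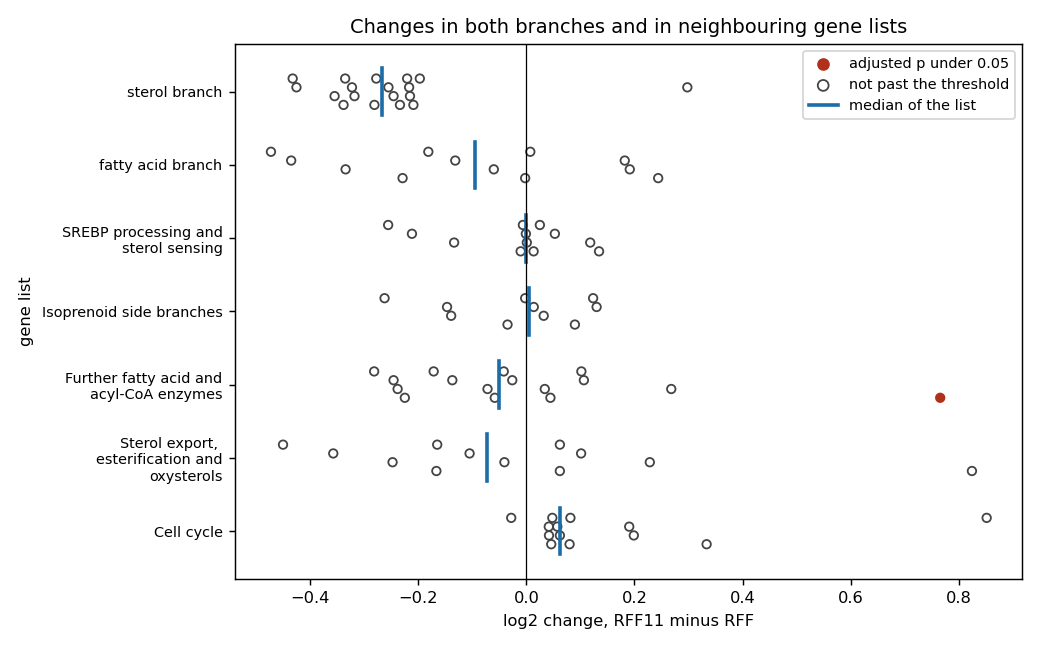
Log2 change, RFF11 minus RFF (horizontal axis), of each tested gene in the sterol and fatty acid branches and in 5 neighbouring lists (vertical axis). Open circles did not pass the threshold, the filled red circle is Fads3 at 0.77, and blue lines are list medians, from -0.27 for the sterol branch to 0.06 for the cell cycle.

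Growing cells need new membrane, so cell cycle genes were set beside the pathway. Of 13 tested none passed in limma and 1 had an unadjusted p under 0.05, against 24.1% of all genes tested. Changes lay above 0 for 12, against 47.2% of all genes tested, with a median of 0.06. That side rested on RFF11 replicate 2, without which 9 of 13 lay below 0 with a median of -0.075. Without RFF11 replicate 1 the median was 0.26. The lowest was Pcna at -0.03 (0.02 with quantile normalisation), and the highest was Tyms at 0.85 (SE 0.49), with -2.24 on RFF11 replicate 1 and -3.93 to -3.60 on the others. Linear signal was summed over the list in units of each array's 75th percentile. The sums were 75.9 and 75.7 in RFF and 72.4 and 87.2 in RFF11. Those of the sterol branch were 151.1 and 141.9 in RFF and 115.6 and 128.3 in RFF11. The part of cell growth in the sterol difference was not tested.

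Markers of other cells that a CD11c+ isolate could hold moved with the genotype too, where 1.05% of genes tested were called higher and 0.852% lower. Of 8 neutrophil markers tested 7 lay above 0, and Mpo rose by 0.74 (adjusted p = 0.0378) and Ngp by 0.54 (adjusted p = 0.0445). Mpo was dim, at -3.90 and -3.98 in RFF and -3.21 and -3.18 in RFF11. The 1 below 0 was Elane, at 0.41 and 0.46 against 0.25 and 0.33, or -0.14 (limma adjusted p = 0.261). The summed signal of the 8 was 21.98 and 25.2 in RFF and 45.3 and 36.6 in RFF11. It was highest on RFF11 replicate 1, the array lowest for sterol genes. Of 8 macrophage markers 6 lay below 0 and Fcgr1 fell by 0.61 (adjusted p = 0.0416). The 2 above 0 were Adgre1 at 0.34 (limma adjusted p = 0.0774) and Csf1r at 0.04. The macrophage list summed to 286.0 and 298.2 in RFF against 283.0 and 278.2 in RFF11. Of 6 mast cell, basophil and eosinophil markers 4 lay above 0, with a median change of 0.37. Mcpt8 rose by 1.13 (limma adjusted p = 0.0495) and Hdc by 0.48 (adjusted p = 0.0475), and Siglecf fell by 0.63 (adjusted p = 0.0381). The 6 markers summed to 5.11 and 5.07 against 4.66 and 4.28, sums in which Siglecf, the brightest of the 6, weighed most. With median scaling the calls of Ngp (adjusted p = 0.0581) and Hdc (0.0636) ended, that of Mcpt8 ended with quantile normalisation (0.0568) and with the mean of all probes (0.0514), and those of the 6 markers ended without a filter and with the replicate block.

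Lymphocyte sums were 3.84 and 3.83 against 3.10 and 3.45 over Cd3e and Cd4, and Cd79a, Cd8a and Ncr1 were not well above background. The erythroid marker Hba-a1 had a signal of 0.0378 and 0.0412 against 0.0359 and 0.0455, and Klf1 was not well above background. Dendritic cell markers summed to 789.0 and 755.5 in RFF and 751.8 and 708.8 in RFF11, sums in which the brightest genes weigh most. By gene 4 of 7 lay below 0, the lowest at -0.11, and 3 above 0, with none past the threshold in limma. The 2 at an unadjusted p under 0.05 were higher, Ciita at 0.41 and Flt3 at 0.38. Over all genes tested 24.1% had such a p, and 11.2% in the higher direction. Zbtb46, Cd68, Ly6g and Hbb-b1 had no matched probe, and Fcer1a and Epx were not well above background. The part of these cells in the sterol difference was not tested.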

How the data were processed

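Total RNA was labelled with Cy3 and hybridised to 1-colour Agilent mouse arrays, per the labels. The deposited spot intensity was background-subtracted and detrended in Agilent Feature Extraction 10.7.1.1 per the submitters' processing notes and the file headers; flags (0 or 1) for spots above background, outlying or saturated are from the same software. The authors' deposited table of normalized log2 values, whose processing is not given in the sources used here, matched the scanner log2 levels centred on each probe's median over 4 samples in all 4 columns (column medians 0.0531, -0.0305, -0.034 and 0.0201) and served as an alternative.

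Outlier spots (127 to 176 per array) were left out, log2 signal was reduced by the array's 75th percentile, repeated spots were averaged, probes had to be well above background in each array of 1 genotype or the other, and the brightest probe represented a gene. Of 39429 probes 26055 had 1 RefSeq symbol (GRCm38.p6 table, names only, since the array annotation is mm9 per the file headers), 0 several and 13374 none. Genotypes were compared with limma 3.58.1 (lmFit, eBayes) in R 4.3.3 and Python 3.11.15, with 95% intervals from the moderated fit. The procedure was tested on simulated data. Normexp used gMedianSignal, the spot signal in the files. 0 columns of other samples were present.

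The 36 members, the neighbouring lists and the alternatives were chosen with earlier results of these data known. Named with values on every array were, by rule, Rbpj, the 3 lowest and the highest change in each role group, the member with the widest spread between arrays of a genotype in each branch, Srebf1, Srebf2, Insig1, Insig2 and members whose probes disagree in direction; in other lists, up to 4 genes past the threshold and the lowest and highest. Acaca, Fdps, Hsd17b7 and the dendritic cell markers Cd74, H2-Ab1, Itgax, Ciita and Flt3 were named outside this rule after their values were seen. The same holds for the markers Elane, Adgre1 and Csf1r, and for the choice of promoters shown. Some marker results are not reported here.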

Additional observations from a re-analysis of the deposited data

How the results depend on the processing

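Of 14 alternatives to the processing, 30 of the 36 genes kept their sign in every one, among them 17 of the 18 sterol enzymes (Nsdhl is the exception). Part of this was fixed in advance. The filter on 4 of 4 arrays, no filter, the trended prior and the replicate block left each member's change as it was. For the 29 members without overlap of the genotypes, leaving out 1 array could not alter the sign. Members past the threshold numbered 0, but 1 (Insig1) with median scaling, with normexp and with a filter on 4 of 4 arrays. Those settings called 2.36%, 4.94% and 2.77% of genes tested, in that order. With a variance prior with trend and robust 4 passed (Insig1, Mvd, Tm7sf2 and Elovl5), where 8.65% of genes tested were called. The fatty acid median of -0.10 was -0.13 with median scaling, -0.071 with the percentile over probes well above background, -0.054 with quantile normalisation and -0.061 with normexp, and the branch difference was -0.21 with quantile normalisation. Genes past the threshold in the neighbouring lists numbered 1 (Fads3), where 1.9% of genes tested were called. They numbered 4 with normexp (4.94% of genes tested) and 7 with the trended prior (8.65%). Without a filter on dim probes they numbered 0, and with the replicate block 0. Without 1 array the sterol median ran from -0.35 to -0.17, the fatty acid median from -0.17 to -0.088 and the branch difference from -0.19 to -0.079. An arm of 1 array is then assumed to vary like the other, and overlap of genotypes was not counted. Rbpj kept its sign but lost the call without a filter (-1.25, adjusted p = 0.259), with the replicate block (-1.25, adjusted p = 0.101) and without 1 array (-1.29 to -1.21).

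Signs changed for genes near 0 or with 1 stray array. Acaca was -0.025 with median scaling and -0.14 to 0.15 without 1 array. Elovl6 was 0.023 with the percentile over probes above background, 0.061 with normexp, 0.0023 with the authors' deposited table and -0.034 to 0.029 without 1 array. Fads1 was 0.0045 with normexp. Without 1 array Nsdhl ran from -0.17 to 0.76, Srebf1 from -0.10 to 0.0029 and Fads2 from -0.21 to 0.59. Outside the members, Icmt was -0.041 as the mean of its probes and Pcna 0.022 with quantile normalisation and -0.073 to 0.017 without 1 array. The cell cycle median, an alternative added after seeing the data, ran from -0.075 to 0.26 without 1 array and from 0.030 to 0.096 over the other settings. The causes were not tested.

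Nothing in the labels says that same-numbered arrays are pairs. Their deviations from the group means correlated at -0.05 over genes, which cannot decide whether they were handled together. With the replicate block 0 genes were called in place of 342, with 3676 at an unadjusted p under 0.05, and the lowest adjusted p of the members was 0.124.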
